A study of Mus musculus with 12 samples.

Results

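The baseline expression state of MC38 cells was described from the 3 arrays labelled 24h_DMSO, out of 12 arrays in the series. MC38 is a mouse colon carcinoma line of C57BL/6 background that is widely implanted into immunocompetent mice of that strain as a tumour immunology model. The series held MC38 cells cultured for 24 h or 72 h with the solvent DMSO alone or with GDC-0623, an inhibitor of MEK, at 100 nM, with 3 biological replicates in each of the 4 groups. The 24 h DMSO cells received no inhibitor, and their labels name no engineered allele, no cytokine and no immune cells. The cells were grown as a pure culture of 1 line in flasks, so stroma, blood vessels and immune cells of a tumour were not part of these samples. No array of cells without the solvent was analysed here, so the cells' own state and any effect of DMSO cannot be told apart.

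RNA was hybridised to the Affymetrix mouse GeneChip 3′ expression array after labelling from the same end. Each gene's level is its log2 value after robust multichip averaging (RMA), averaged over the 3 arrays. Where several probe sets carried a gene's symbol and no other, the probe set with the highest mean was taken, which gave 18193 genes. A value below 5 was called the background range, and a level of 10 or more was called bright. By this rule 10730 genes (59.0%) lay at or above 5, and 1899 genes (10.4%) were bright. Probe sets differ in how well they bind their target, so the order of levels is an order of signal and not of transcript numbers, and a value in the background range does not show that a gene is silent. The rule of the highest probe set moves levels up. A gene below 5 therefore has all of its probe sets below 5, but a gene just above 5 may rest on 1 probe set out of several.

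Genes with no known role in colon tumour cells gave a gauge of that range. Of 71 olfactory and vomeronasal receptor genes, which sense odours and pheromones in the nose, 68 lay below 5, their median was 3.30 and the highest reached 6.87. Among 18 markers of liver, muscle, nerve, blood, pancreas, lung, kidney, testis and pigment cells, 7 lay at or above 5 and none at or above 7. The testis protamine Prm1 reached 6.0 and the pigment protein Pmel 6.04. A level between 5 and 7 was thus also seen for genes of unrelated tissues, and 7 was added as a stricter limit after these values had been seen. It kept 7550 genes (41.5%). In what follows, genes from 5 to 7 are named apart from those at or above 7.

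The 3 arrays were close to each other. Pairwise Pearson correlation over genes was 0.9983 to 0.9984, array medians were 4.70, 4.67 and 4.69, and the median SD of a gene over the arrays was 0.075. The spread was smaller at high levels, with a median SD of 0.038 for bright genes and 0.10 for genes below 5. Since no source says how separately the replicates were cultured, the SD covers the spread between these 3 arrays only, which may be partly technical.

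**Figure D1:**
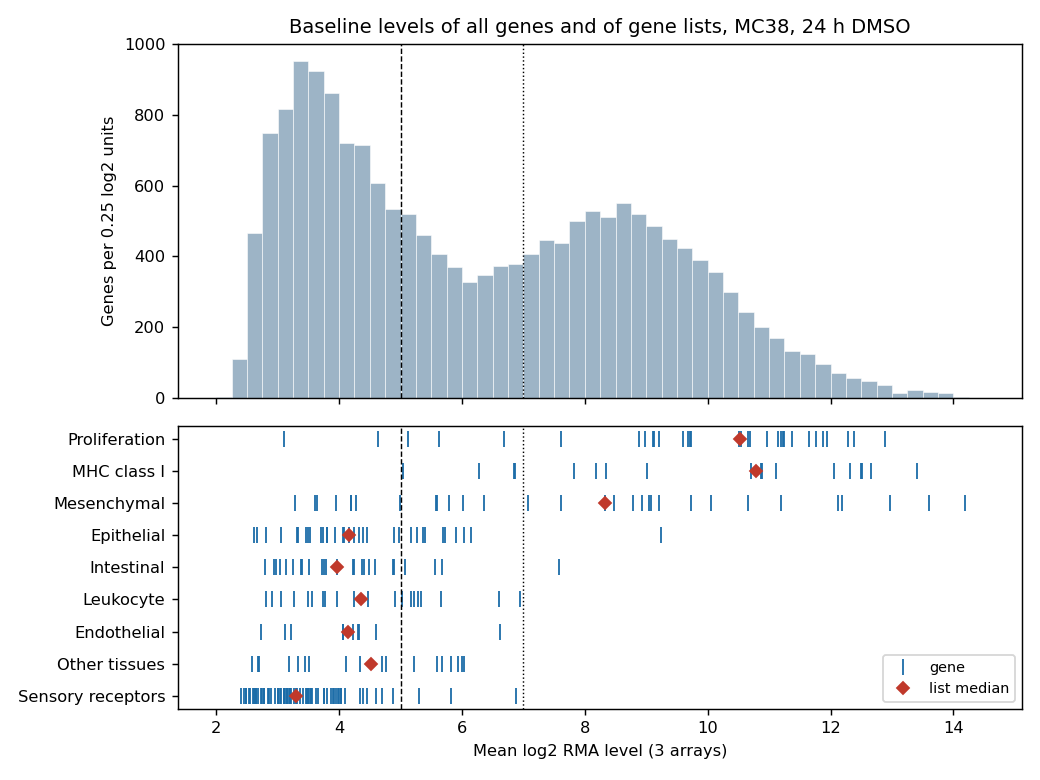
Number of genes per 0.25 log2 units of mean RMA level over the 3 arrays of MC38 cells after 24 h in DMSO (top, all 18193 genes), and the level of every gene of 9 lists (bottom; each tick is 1 gene, the diamond is the list median). The dashed line marks the limit of 5 and the dotted line 7; the lists of proliferation, MHC class I and mesenchymal genes have medians of 10.53, 10.79 and 8.33, whereas the epithelial, intestinal, leukocyte, endothelial, other-tissue and sensory receptor lists have medians below 5.

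The brightest of the genes analysed was Lgals1, encoding the secreted lectin galectin-1, which mesenchymal and many tumour cells release. It read 14.17, 14.20 and 14.18 on the 3 arrays. Behind it came the translation machinery. Of the 20 brightest genes, 12 encode ribosomal proteins (Rpl41, Rpl37a, Rplp0, Rps2, Rplp2, Rpl7a, Rpl19, Rps26, Rpl38, Rps29, Rps3a1 and Rps14), and these spanned 13.72 to 14.14. Another pair serves the same process, the elongation factor Eef1a1 at 13.99 and the poly(A)-binding protein Pabpc1 at 13.96. The other members of the 20 were the iron store Fth1 (13.88), cytoplasmic actin Actb (13.84), the nucleoside diphosphate kinase Nme2 (13.82), the calcium-binding protein S100a6 (13.80) and Tpt1, a growth-linked translationally controlled protein (13.77). Within these 20 genes the SD was at most 0.023, yet neighbours such as Rplp0 and Pabpc1 had the same level to 2 decimals, so the order within the group is not resolved.

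Among the 50 brightest genes, at 13.37 or above, 29 encode ribosomal proteins. Of the 49 ribosomal protein genes analysed, 46 lay at or above 5 (93.9%, against 59.0% of all genes), with a median of 13.47. Of the 49, 40 were bright, against 10.4% of all genes. Ribosomal protein genes carried only by probe sets with several symbols were not counted. The remaining genes of the 50 included Vim (rank 28), the serine synthesis enzyme Phgdh (13.46), the cytokine Mif and B2m (rank 47). The share of ribosomal protein genes was lower further down, with 35 in the 100 brightest, where annexins (Anxa1, Anxa2), the glutathione transferase Gstp1, chaperones (Hspd1, Hsp90aa1), chaperonin subunits (Cct2, Cct5) and mitochondrial respiratory subunits (Cox4i1, Cox5b, Uqcrb) appeared.

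Ribosomal protein mRNAs are known for a terminal oligopyrimidine tract: they start with C followed by a run of C and T, through which nutrient and growth signals control their translation. The starts of 5 such genes among the 50 brightest are shown because they carry that tract at the annotated start. Each sequence runs from 15 bases before to 15 bases after the start (RefSeq, GRCm38.p6, read on the gene's strand), with the C at the start and the pyrimidines after it in capitals.
Rps10 (chr17:27635230-27635259, minus strand, level 13.65): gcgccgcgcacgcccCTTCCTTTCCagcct
Rps18 (chr17:33955651-33955680, minus strand, level 13.63): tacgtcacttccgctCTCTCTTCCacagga
Rpl35 (chr2:39005117-39005146, minus strand, level 13.57): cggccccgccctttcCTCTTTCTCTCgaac
Rpl38 (chr11:114668565-114668594, plus strand, level 13.75): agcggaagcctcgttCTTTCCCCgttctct
Fau (chr19:6057932-6057961, plus strand, level 13.53): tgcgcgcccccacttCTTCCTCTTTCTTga
A C at the start with at least 5 pyrimidines directly after it stood in 5 of the 25 ribosomal protein genes of the 50 brightest that have a promoter window (20%), in 0 of the 17 other genes of the 50, and in 304 of 14452 genes with a window (2.1%). RefSeq starts can lie some bases from the start used in these cells, so no match at the annotated base says only that the letters are not there.

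Epithelial cells of the colon are joined by E-cadherin, claudins and desmosomes and are filled with keratins 8, 18, 19 and 20. Mesenchymal cells instead make vimentin, N-cadherin and fibrillar collagens, and the transcription factors Snai1, Snai2, Zeb1, Zeb2, Twist1 and Twist2 are known to repress epithelial genes through short E-box sequences in their promoters. The lineage lists were read against this background.

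Of 33 epithelial genes, 10 lay at or above 5 (30.3%, against 59.0% of all genes), and the median was 4.17. At or above 7 lay 1, against 41.5% of all genes. E-cadherin (Cdh1), the defining adhesion protein, read 2.51, 2.63 and 2.71. Krt18, the type I keratin of simple epithelia, read 2.65, 2.90 and 2.87, a level below that of about 96% of genes (4.01% lay lower). Its partner Krt8 read 5.24, 5.09 and 5.17 on the brightest of its 3 probe sets, and the lowest of them was at 3.98. Every one of the Cdh1 and Krt18 values lay within the background range, whereas Krt8 stood at its upper edge on all 3 arrays.

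Epcam, a surface protein of most carcinomas, read 5.31, 5.34 and 5.45, on a probe set that can bind related sequences, while its other probe set had 4.19. Krt19 (3.73), Krt20 (3.71), Krt7 (3.46), the tight junction protein Cldn7 (3.80) and the desmosomal protein Dsp (3.06) were in the background range. The highest level belonged to Tjp1, the tight junction scaffold ZO-1, which also occurs in non-epithelial cells, with 9.17, 9.34 and 9.21. After it came the polarity protein Crb3 (6.15), the splicing factor Esrp2 (6.03), Cldn3 (5.90), the transcription factor Elf3 (5.72) and the lipolysis-stimulated receptor Lsr (5.70). Those 5 genes lay between 5 and 7, where markers of unrelated tissues were also found.

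Genes of intestinal identity gave a like picture. Of 25, 4 lay at or above 5 (16%, against 59.0% of all genes), and the median was 3.96. At or above 7 lay 1, against 41.5% of all genes. The transcription factor Sox9, active in colon crypts but also in cartilage and many tumours, read 7.71, 7.68 and 7.36. Cdx2, the master regulator of intestinal fate, read 5.20, 5.0 and 5.04, at the limit, and its relative Cdx1 had 3.79. The Wnt target Axin2 (5.56) and the hepatocyte and gut factor Hnf4a (5.67) were the others above 5. The stem cell receptor Lgr5 (3.72), the brush border protein villin (Vil1, 3.39), the goblet cell mucin Muc2 (4.37), the endocrine marker Chga (3.96) and the fatty acid binding protein Fabp1 (2.98) lay in the background range, so the named markers of stem, absorptive, goblet and endocrine cells were all there.

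Mesenchymal genes were on the other side of the limit. Of 31, 23 lay at or above 5 (74.2%, against 59.0% of all genes), with a median of 8.33. There were 18 at or above 7 and 8 at or above 10, against 41.5% and 10.4% of all genes. Vimentin (Vim) read 13.64, 13.60 and 13.58 and was brighter than 99.85% of genes. The metastasis-linked S100a4 (12.98), the matrix glycoprotein Sparc (12.19) and the hyaluronan receptor Cd44 (12.12) followed. Fibronectin (Fn1) read 10.72, 10.64 and 10.60, although the lowest of its probe sets stood at 3.89.

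N-cadherin (Cdh2), the cadherin of mesenchymal cells, read 8.11, 8.55 and 8.32. The repressors named above were mostly at or above 7: Twist2 had 10.05, Zeb1 9.05, Twist1 8.94, Snai2 8.78 and Zeb2 7.07, while Snai1 had 6.35. Zeb1 read 9.07, 9.05 and 9.03 on its brightest probe set, but the mean over all its probe sets was 5.24. All 6 factors thus lay above 5.

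The collagens were uneven. Col3a1 read 11.57, 10.99 and 11.01, with replicate 1 above the other two, and Col5a1 (9.72), Col1a2 (9.08) and Col6a1 (8.47) lay well above 7. Col1a1, which pairs with Col1a2 in type I collagen, read 4.15, 4.14 and 4.30, and its brightest probe set stood in the background range. The fibroblast markers Thy1 (4.20), Postn (4.28), Lum (3.60) and Fap (3.29) and the contractile Cnn1 (3.65) were also below 5. Smooth muscle actin (Acta2) read 6.20, 5.52 and 6.35. Bright vimentin and fibronectin therefore did not come with the full set of markers of activated fibroblasts.

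**Figure D2:**
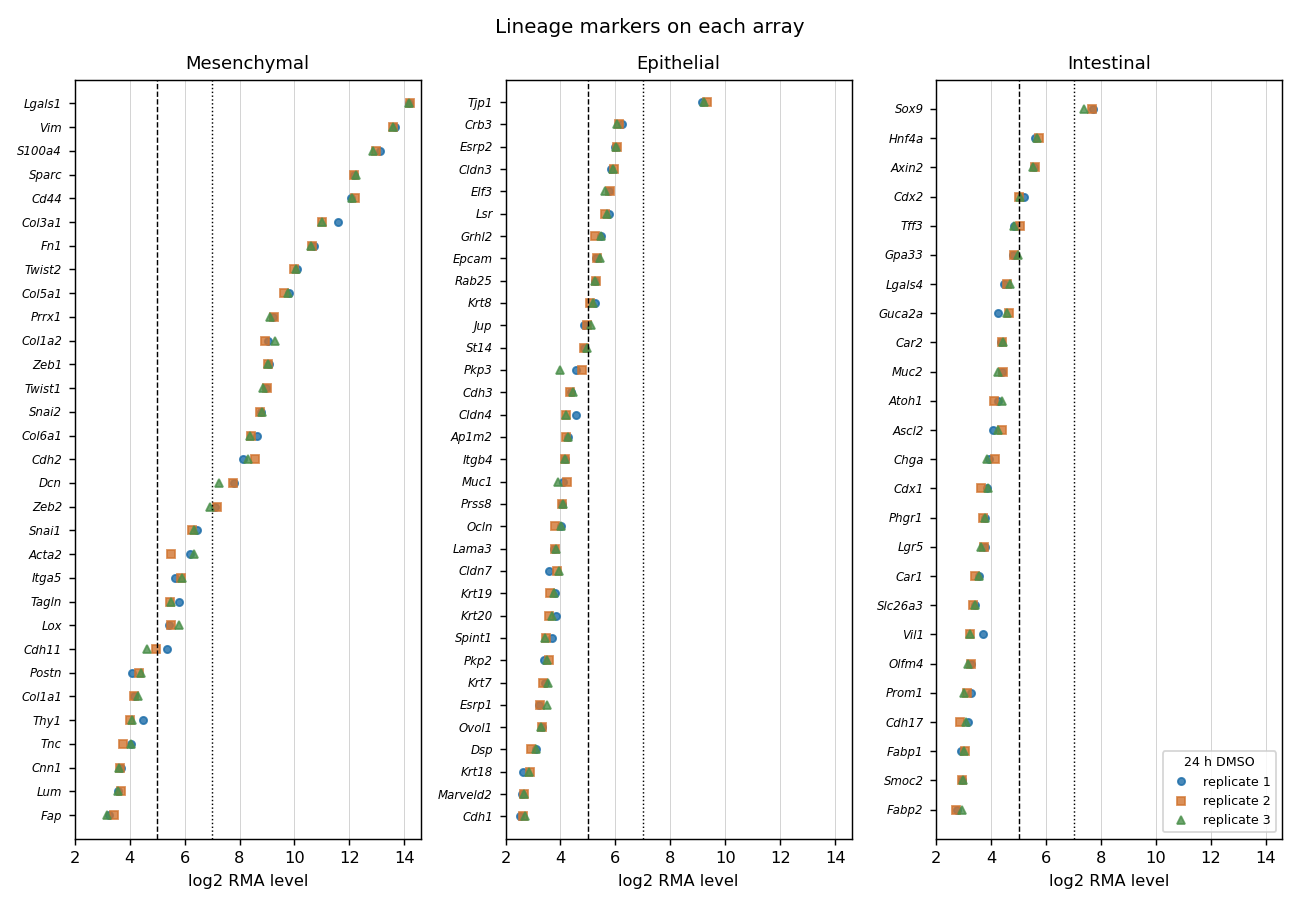
Level of every mesenchymal (31), epithelial (33) and intestinal (25) marker on each of the 3 arrays of 24 h DMSO cells (log2 RMA; 1 symbol per replicate; dashed line at 5, dotted line at 7). In the mesenchymal panel 18 genes reach 7, whereas 1 epithelial gene (Tjp1) and 1 intestinal gene (Sox9) do.

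Promoter windows of the lineage genes were searched for the E-box read by Snail and Zeb factors, CACCTG or, on the other strand, CAGGTG. The windows reach from 250 bases before to 50 bases after each RefSeq start, but only the 250 bases before it were searched for the E-box. The motif was chosen with the levels known. Of 33 epithelial genes 20 had a window; Cdh1 and Krt19 had none and were not searched. The stretches below are from epithelial genes that hold it, given in the gene's direction with the E-boxes in capitals. Ap1m2, an epithelial adaptor subunit for basolateral sorting, holds 4 of them within the last 90 bases before its start.
Ap1m2 (chr9:21312334-21312423, minus strand, level 4.25): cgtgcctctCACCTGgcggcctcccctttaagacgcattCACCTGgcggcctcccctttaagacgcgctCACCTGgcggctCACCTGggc
Cldn7 (chr11:69965321-69965375, plus strand, level 3.80): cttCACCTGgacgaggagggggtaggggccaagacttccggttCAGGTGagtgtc
Rab25 (chr3:88548320-88548349, minus strand, level 5.27): tccaccCACCTGtgcccCAGGTGcccagcg
Epcam (chr17:87635949-87635978, plus strand, level 5.37): cccataaaaccCAGGTGtggaggagaagca
Krt18 (chr15:102027990-102028019, plus strand, level 2.81): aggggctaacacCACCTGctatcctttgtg
At least 1 E-box of this form stood in 13 of the 20 epithelial genes that have a window (65%), in 7 of 17 intestinal genes (41.2%) and in 1 of 18 mesenchymal genes (Snai1, 5.56%). The share was 19.9% over all 14452 genes with a window and 14.3% over the leukocyte list. Epithelial genes below 5 held it in 7 of 12 cases and those at or above 5 in 6 of 8, so among epithelial genes the motif was not confined to those in the background range. A match is a run of letters and not a bound site, and binding was not measured here.

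Markers of other cells that a culture could hold had means below 7, although some exceeded 5. The pan-leukocyte phosphatase Ptprc (CD45) read 3.09, 2.85 and 2.78, and the macrophage markers Itgam (3.26) and Adgre1 (3.77) lay in the background range. Of 20 leukocyte genes, 8 lay at or above 5 (40%, against 59.0% of all genes) and none reached 7 (41.5% of all genes did). They were led by the endotoxin coreceptor Cd14 (6.95) and the integrin chain Itgb2 (6.60), and Cd3e, part of the T cell receptor complex, had 5.28. Of 10 endothelial genes only Egfl7 (6.62) exceeded 5 (10%), while Pecam1 (3.21), Cdh5 (4.06) and Vwf (2.72) did not. The 3 measured Y-linked genes and Xist, which silences an X chromosome in female cells, were all below 5, with Xist at 4.51.

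Cell cycle genes were among the brightest of the lists. Of 32, 30 lay at or above 5 (93.8%, against 59.0% of all genes), 27 at or above 7 and 17 at or above 10, with a median of 10.53. Over all genes, 41.5% reached 7 and 10.4% reached 10. Pcna, the sliding clamp of DNA replication, read 12.88, 12.89 and 12.91. The ribonucleotide reductase subunit Rrm2 (12.38), topoisomerase Top2a (11.94), the replicative helicase subunit Mcm7 (11.88), the kinases Cdk4 (11.76) and Cdk1 (11.64) and the proliferation antigen Mki67 (10.69) were all bright. All 6 subunits of that helicase, Mcm2 to Mcm7, lay at or above 10.50.

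Cyclin D1 (Ccnd1), which couples growth factor signals to entry into the cycle, read 12.29, 12.30 and 12.26, and its relatives Ccnd2 and Ccnd3 had 11.14 and 9.72. Myc, the growth-promoting transcription factor, read 10.64, 10.68 and 10.66, whereas Mycn (6.69) and Mycl (5.12) lay between 5 and 7. The values of Ccnd1 and Myc differed by no more than 0.04 between the arrays.

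The inhibitors of the cycle fell on both sides. Cdkn2c (9.59), Cdkn2b (9.21), Cdkn1b (9.13) and Cdkn1a (7.62) were above 7. Cdkn2a, the tumour suppressor locus beside Cdkn2b that encodes p16 and p19ARF, read 3.17, 3.08 and 3.05 on its only probe set. Its level was in the background range on every array, while that of its neighbour was not. The retinoblastoma gene Rb1 had 5.63, and Tyms, a thymidylate synthesis enzyme, had 4.63 on the brightest of its 4 probe sets.

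The pathway on which the inhibitor of the study acts runs from RAS over RAF and MEK to ERK. All 14 measured members and targets had means at or above 5, against 59.0% of all genes, with a median of 8.68. At or above 7 lay 11, against 41.5% of all genes. On every array 13 of the 14 were at or above 5, and 13 were without replicate 1. Nras had 10.34, the MEK genes Map2k1 and Map2k2 had 9.51 and 10.23, and the RAF genes Braf and Araf had 8.05 and 7.98. Transcripts known to be induced by ERK differed in level. The AP-1 subunit Fosl1 read 11.15, 11.21 and 11.21, and the ERK phosphatase Dusp6 read 10.14, 10.13 and 9.93. Egr1 (8.98), Dusp4 (8.37), Etv5 (8.23), Spry2 (6.88), Etv4 (6.73) and Spry4 (5.02) covered a wide range below them. Spry2, Etv4 and Spry4 had means between 5 and 7, and Spry4 read 5.09, 5.01 and 4.96, on both sides of the limit.

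All 10 colon cancer driver and mismatch repair genes that were measured lay above 7, against 41.5% of all genes at or above 7. They ran from Tcf7l2 (7.65) to beta-catenin (Ctnnb1), which read 11.55, 11.54 and 11.52. Apc, the suppressor most often lost in human colon cancer, read 9.03, 9.02 and 9.03. Smad4 (10.75), Msh6 (9.69), Smad2 (9.24), Pole (9.0), Pik3ca (8.61), Pms2 (8.29) and Fbxw7 (7.76) lay between. A transcript level says nothing of mutations in these genes.

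Receptor tyrosine kinases pass growth factor signals to that pathway. Of 56 measured, 31 lay at or above 5 (55.4%, close to the 59.0% of all genes), 15 at or above 7 and 3 at or above 10. At 7 and at 10 the shares of the family were lower than the 41.5% and 10.4% of all genes. Axl, the receptor for Gas6, read 10.96, 10.99 and 10.91. The collagen receptor Ddr2 read 10.68, 10.60 and 10.67, and the Wnt coreceptor Ryk had 10.26. The hepatocyte growth factor receptor Met read 9.81, 9.89 and 9.76, followed by the ephrin receptor Epha2 at 9.23.

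Receptors that mark mesenchymal cells were among those above 7. Pdgfra read 8.86, 8.76 and 8.64, Fgfr1 had 8.58, and Pdgfrb read 7.48, 7.19 and 6.81, with the widest spread of the family (SD 0.34). The other fibroblast growth factor receptors were lower, with Fgfr2 at 6.08, Fgfr3 at 5.58 and Fgfr4 at 5.39. Igf1r (7.92), the insulin receptor Insr (7.16), the endosomal kinase Lmtk2 (8.11), Styk1 (7.49) and the ephrin receptor Ephb4 (7.0) completed the 15 with the ERBB receptors.

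The ERBB receptors, targets of several cancer drugs, were graded. Erbb2 read 7.70, 7.58 and 7.68, Egfr 7.48, 7.38 and 7.51, Erbb3 6.83, 6.75 and 6.61, and Erbb4 2.52, 2.46 and 2.66. Only Erbb4 lay in the background range. Its level was lower than that of more than 99% of genes (0.91% lay lower).

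Several receptors of other lineages lay in the background range: Kit (3.49), of mast, germ and pigment cells; Tek (3.43) and Tie1 (3.07), of endothelium; Flt3 (4.69), of blood progenitors; and Ret (4.29), Alk (4.25), Ntrk3 (4.66) and Musk (3.53), of nerve or muscle. The vascular endothelial growth factor receptor Kdr read 4.69, 4.89 and 5.03, so its arrays lay on both sides of the limit. Csf1r, the macrophage receptor, had 5.61 and Flt1 5.73, both between 5 and 7. Axl's family members Tyro3 (6.95) and Mertk (5.48) lay there too, as did Ddr1 (6.20), the epithelial counterpart of Ddr2.

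**Figure D3:**
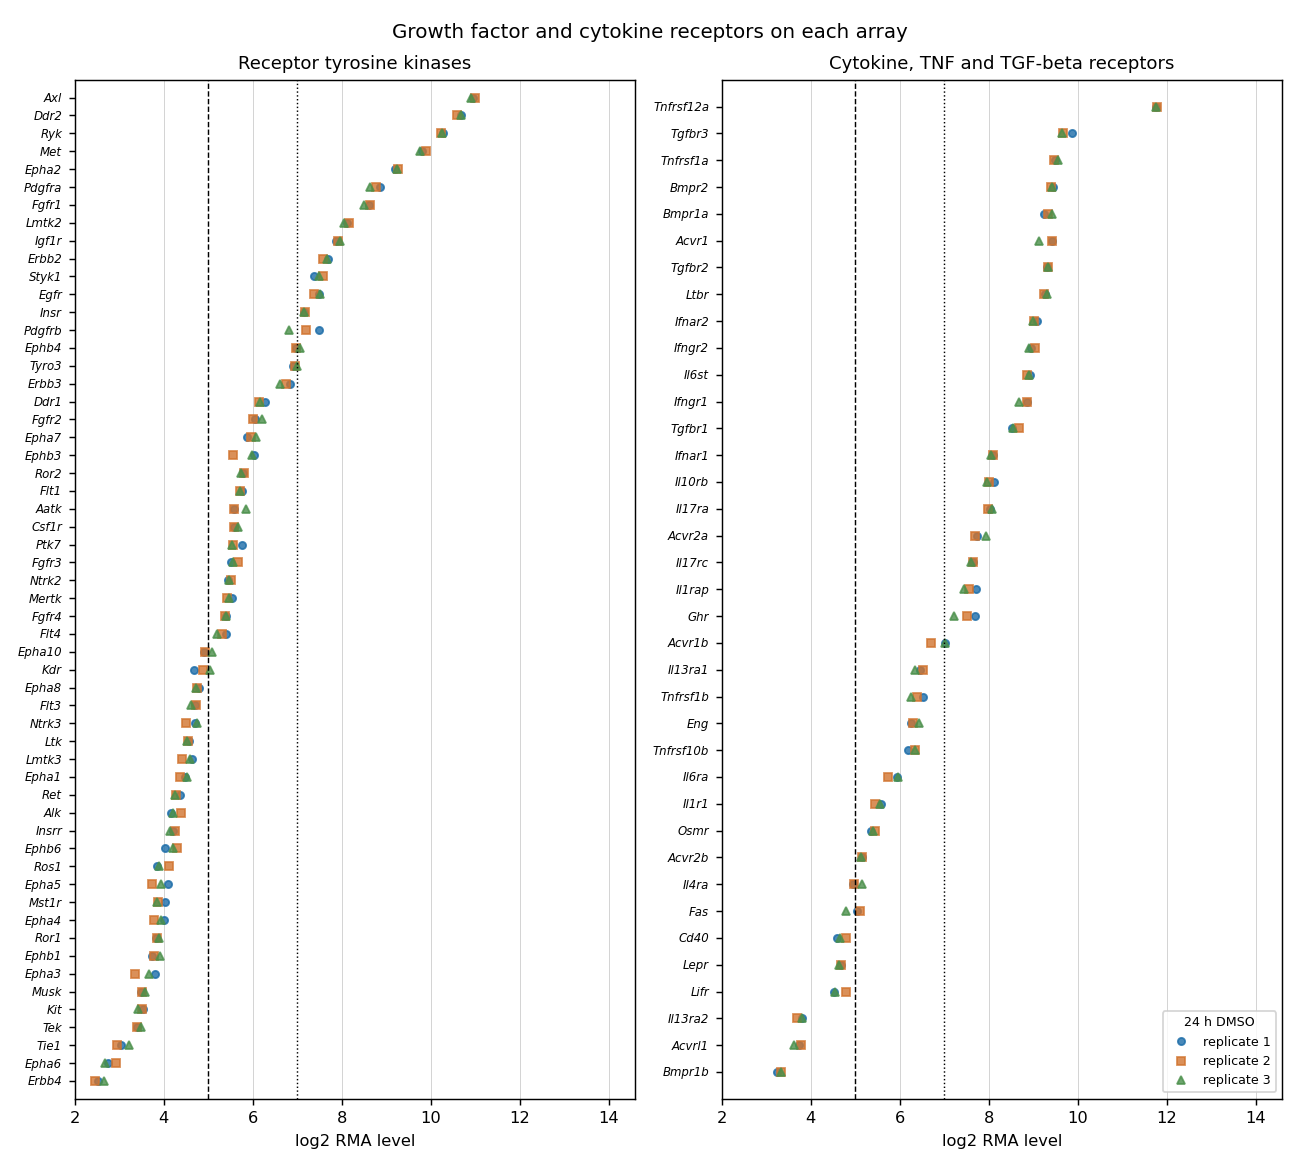
Level of 56 receptor tyrosine kinase genes (left) and 37 cytokine, TNF and TGF-beta receptor genes (right) on each of the 3 arrays of 24 h DMSO cells (log2 RMA; 1 symbol per replicate; dashed line at 5, dotted line at 7). Axl leads the left panel with 10.91 to 10.99 and Tnfrsf12a the right panel with 11.75 to 11.77; Erbb4 and Bmpr1b are lowest in their panels.

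Receptors for cytokines, tumour necrosis factors and the TGF-beta family were more often above the limit. Of 37, 30 lay at or above 5 (81.1%, against 59.0% of all genes), with a median of 7.57. At or above 7 lay 20, against 41.5% of all genes. Tnfrsf12a, the receptor for TWEAK, was the only bright one, at 11.76, 11.77 and 11.75. The TNF receptor Tnfrsf1a had 9.50 and the lymphotoxin receptor Ltbr 9.27. TGF-beta receptors were present as Tgfbr3 (9.73), Tgfbr2 (9.32) and Tgfbr1 (8.58), and the BMP and activin receptors Bmpr2 (9.42), Bmpr1a (9.33) and Acvr1 (9.33) stood beside them.

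Both chains of the receptor for interferon gamma were above 7, with Ifngr1 at 8.85, 8.87 and 8.69 and Ifngr2 at 8.94, 9.04 and 8.90. The same held for the type I interferon receptor, with Ifnar1 at 8.08 and Ifnar2 at 9.03, and for Il6st (8.89), the shared chain of the interleukin-6 family. The private chains of that family were lower, with Il6ra at 5.88, Osmr at 5.40 and Lifr at 4.62. Fas, the death receptor, read 5.04, 5.11 and 4.80, and Cd40, a costimulatory receptor of antigen-presenting cells, read 4.59, 4.79 and 4.65. Fas straddled the limit and Cd40 lay below it on all 3 arrays.

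MHC class I molecules present peptides from inside the cell to CD8 T cells, and their assembly needs beta-2-microglobulin, the TAP transporter, chaperones and proteasome subunits. All 18 measured genes of this list had means at or above 5, against 59.0% of all genes. There were 14 at or above 7 and 10 at or above 10, against 41.5% and 10.4% of all genes. The median of the list was 10.79. The lowest, the class I-like gene Cd1d1, read 4.93, 4.91 and 5.28, so 17 of the 18 were at or above 5 on every array, and 17 were without replicate 3. B2m, the invariant light chain, read 13.40, 13.45 and 13.38. The heavy chain genes H2-D1 and H2-K1 had 12.66 and 12.49, with 12.65, 12.74 and 12.59 for H2-D1 and 12.55, 12.51 and 12.42 for H2-K1. Class I genes are close in sequence, and the probe sets of H2-D1 ranged down to 3.45 and those of H2-K1 down to 6.18, so the levels may include signal from relatives.

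The chaperones Pdia3 (12.52), Canx (12.32), Calr (12.06) and Tapbp, or tapasin (11.11), were bright. Of the immunoproteasome subunits, which interferon gamma is known to induce, Psmb8 had 10.87, Psmb10 10.71 and Psmb9 8.34, and the activator Psme1 had 10.88. The peptide transporter chains were lower, with Tap2 at 9.02 and Tap1 at 7.91, 7.86 and 7.72. Nlrc5, the transactivator of class I genes, read 7.09, 6.67 and 6.83, and the tapasin relative Tapbpl had 6.85. Mr1, another class I-like gene, had 6.28. Replicate 1 was the highest array for 12 of the 18 genes (66.7%, against 31.6% of all genes at or above 5), and its median deviation from the gene's mean over the 18 genes was 0.055. This pattern was seen only after the values were known.

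MHC class II, which professional antigen-presenting cells use to show peptides to CD4 T cells, was the opposite case. Of 13 genes, 11 lay below 5 and the median was 4.34, so 15.4% lay at or above 5, against 59.0% of all genes. The chain genes H2-Aa (4.34), H2-Ab1 (4.57) and H2-Eb1 (4.86), the peptide exchange chain H2-DMa (4.54) and Ciita (3.95), the master regulator of the pathway, were in the background range. Cd74, the invariant chain, read 5.22, 5.18 and 5.30. Only Ifi30, a lysosomal thiol reductase that also works outside class II presentation, was higher, at 10.21, 10.21 and 10.31. The costimulatory ligands Cd80 (3.53) and Cd86 (3.68) lay in the background range.

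Of the 3 genes whose mutant peptides are widely used as MC38 neoepitopes, 2 lay above 7, as Reps1 read 10.15, 10.13 and 10.07 and Dpagt1 read 9.24, 9.19 and 9.18. Adpgk read 6.92, 7.12 and 6.95, and its mean lay just under 7, in the span where markers of unrelated tissues were also found. The arrays do not tell mutant from normal transcripts.

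Of 27 further ligands and enzymes that act on immune cells, 12 lay at or above 5 (44.4%, below the 59.0% of all genes). At or above 7 lay 6 of the 27, against 41.5% of all genes. The adhesion molecule Vcam1, which binds leukocyte integrins, read 10.86, 11.05 and 10.86. Cd47, a signal against phagocytosis, read 10.95, 10.87 and 10.88, and the prostaglandin synthase Ptgs2 (COX-2) read 10.63, 10.67 and 10.77. The nectin Nectin3 (9.32), the poliovirus receptor Pvr (8.21), a ligand of the receptors TIGIT and DNAM-1, and Tnfsf9 (7.50), the ligand of 4-1BB, followed.

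PD-L1 (Cd274) read 5.76, 5.78 and 5.61, in the span shared with markers of unrelated tissues. Of the other B7 family ligands on the list, Vsir (VISTA, 5.13) and Icosl (5.02) lay just above 5, whereas Pdcd1lg2 (3.62), Cd276 (3.97) and Vtcn1 (3.18) lay in the background range. Below 5 were also the integrin ligand Icam1 (3.37), the tryptophan-degrading enzyme Ido1 (3.77), arginase Arg1 (3.04) and the surface protein Cd24a (3.09). The adenosine-producing Nt5e had 5.92, whereas its partner Entpd1 had 3.84.

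**Figure D4:**
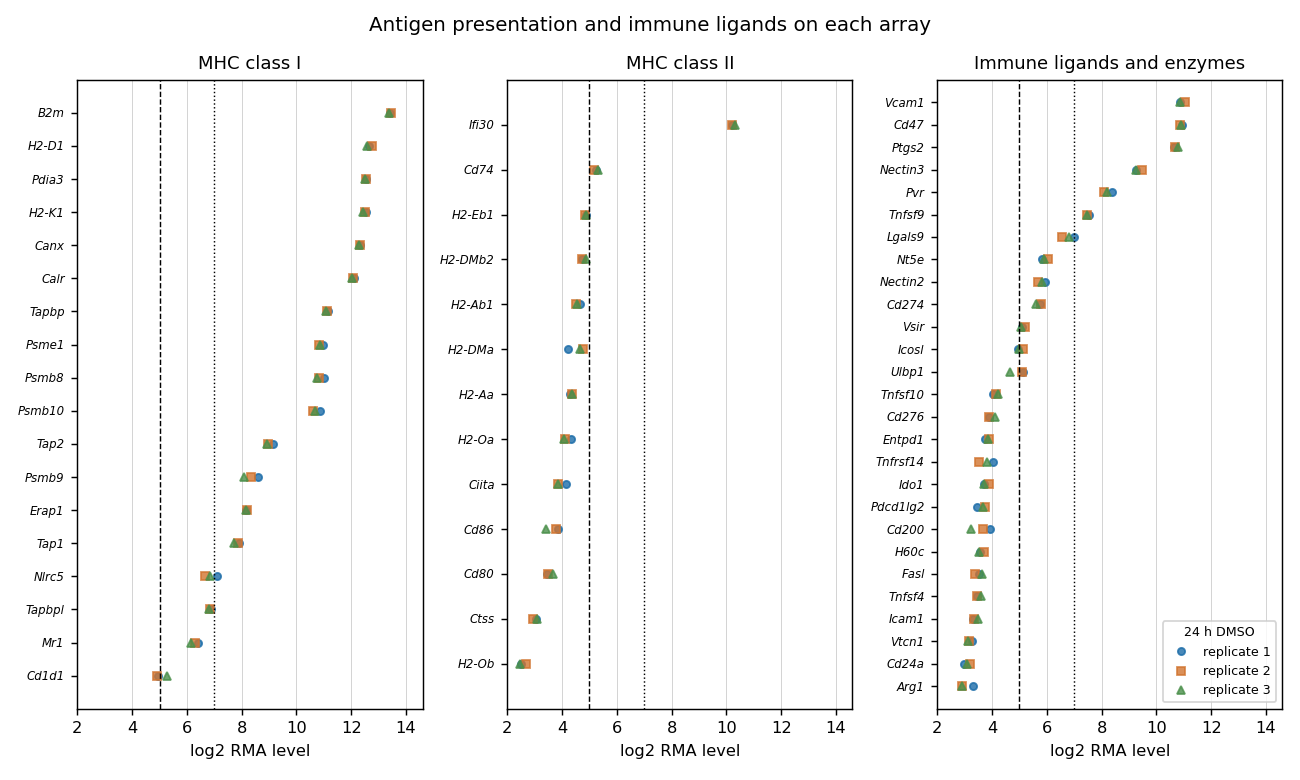
Level of MHC class I genes (18, left), MHC class II and costimulatory genes (13, middle) and immune ligands and enzymes (27, right) on each of the 3 arrays of 24 h DMSO cells (log2 RMA; 1 symbol per replicate; dashed line at 5, dotted line at 7). All 18 class I genes have means at or above 5, and 11 of 13 genes in the middle panel have means below it.

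Chemokines attract leukocytes. Of 35, 13 lay at or above 5 (37.1%, against 59.0% of all genes). At or above 7 lay 5, against 41.5% of all genes, and none was bright, against 10.4%. Ccl2, the main attractant of monocytes, read 10.14, 9.95 and 9.80. Cxcl10, an interferon-induced attractant of T cells, read 9.53, 9.32 and 9.17, whereas its relatives Cxcl9 (4.02) and Cxcl11 (4.92), which share its receptor, lay below 5. Cxcl1, an attractant of neutrophils, read 8.78, 8.80 and 8.70, and the neutrophil attractants Cxcl2 (2.73), Cxcl3 (2.48) and Cxcl5 (2.68) were among the lowest of the list.

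Ccl5, which draws T cells and monocytes, read 8.15, 7.97 and 7.54, and Ccl7, a neighbour of Ccl2 in the genome, read 7.87, 7.50 and 7.61. Replicate 1 was the highest array for both of them and for Ccl2 and Cxcl10, but over the whole list it was highest for 8 of 35 genes (22.9%) and replicate 3 for 14. Between 5 and 7 lay Cxcl16 (6.95), Ccl25 (6.84), Ccl24 (5.65), Cx3cl1 (5.62), Cxcl17 (5.48), Ccl28 (5.46), Ccl4 (5.26) and Ccl17 (5.06). Ccl3 (3.10), Ccl20 (3.56), Ccl22 (3.86), Cxcl12 (4.57), Cxcl13 (4.71) and Ccl1 (4.34) were in the background range with the rest.

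Of 47 cytokines and secreted growth factors, 12 lay at or above 5 (25.5%, against 59.0% of all genes). There were 8 at or above 7 and 3 at or above 10, against 41.5% and 10.4% of all genes. The median of the list was 3.93. Mif, an abundant inhibitor of macrophage migration, read 13.44, 13.42 and 13.44. Stem cell factor (Kitl) read 10.85, 10.85 and 10.77, although its receptor Kit lay in the background range. Csf1, which macrophages need to survive, read 10.57, 10.62 and 10.65, and Il34 (7.17), the other ligand of its receptor, was also above 7. The remaining genes above 7 were Vegfa (7.87), an angiogenic factor, Tgfb3 (7.69), Clcf1 (7.41) and Lif (7.16), both of the interleukin-6 family.

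Tgfb1 had 6.84, and Il7 (5.60), Ctf1 (5.26) and Il18 (5.21) lay close to the limit. Most inflammatory and lymphocyte cytokines were in the background range, among them Il6 (2.89), Il1a (3.16), Il1b (4.93), Tnf (4.52), Csf2 (3.78), Csf3 (4.66), Il10 (3.15), Il2 (3.43) and Il12b (3.38). So were Ifnb1 (3.65, 3.72 and 3.87) and Ifng (3.02, 2.80 and 3.06). The alarmin Il33 read 5.48, 5.02 and 3.70, the largest SD (0.92) of all 18193 genes, and its arrays lay on both sides of the limit.

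**Figure D5:**
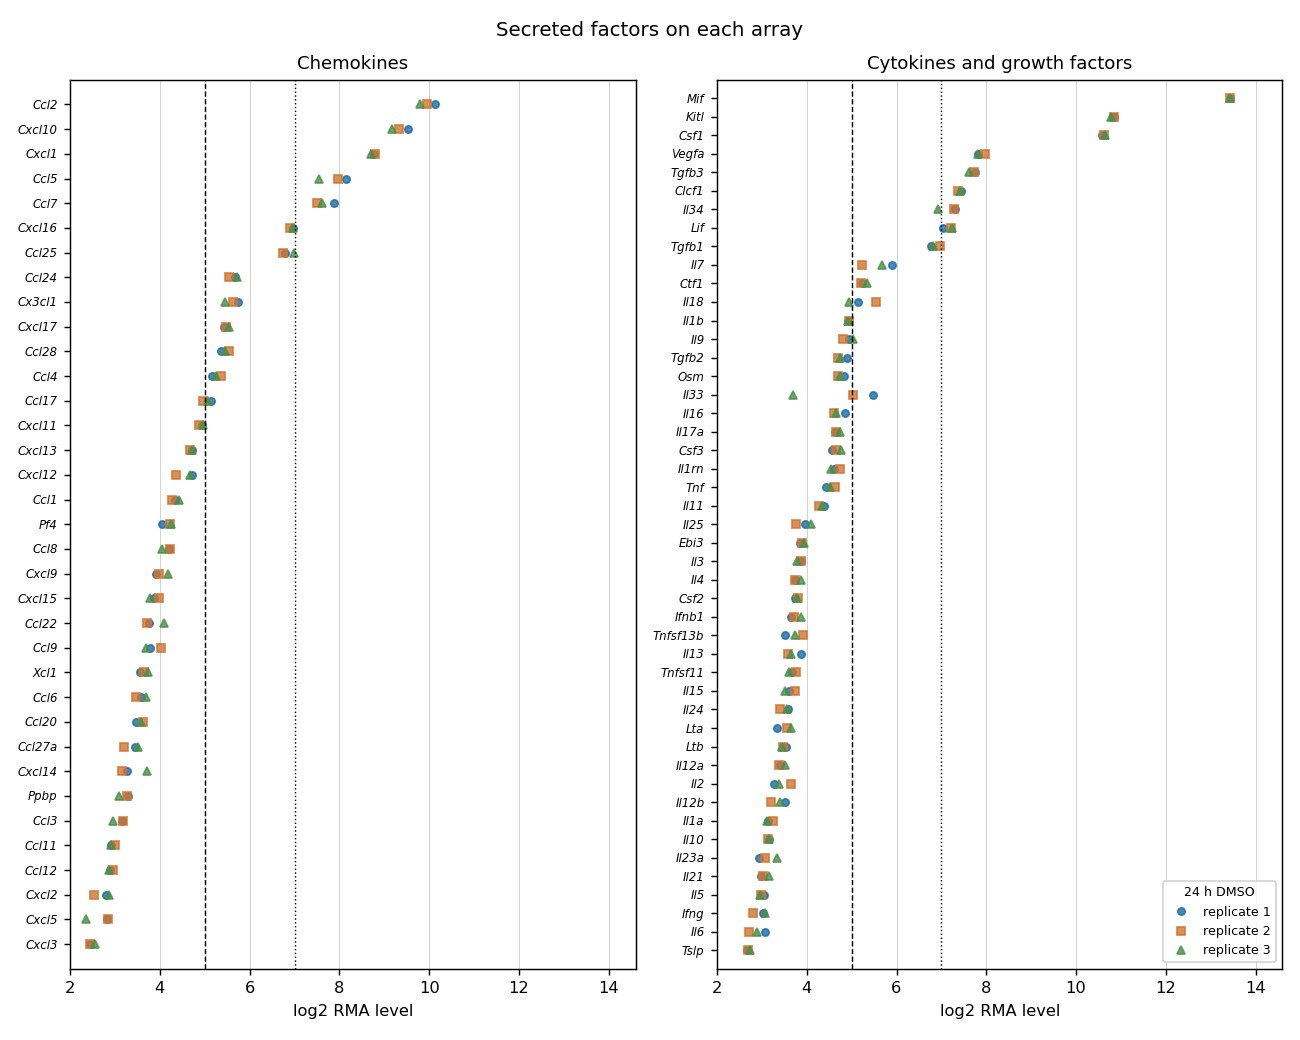
Level of 35 chemokine genes (left) and 47 cytokine and growth factor genes (right) on each of the 3 arrays of 24 h DMSO cells (log2 RMA; 1 symbol per replicate; dashed line at 5, dotted line at 7). Ccl2, Cxcl10, Cxcl1, Ccl5 and Ccl7 exceed 7 in the left panel and Mif, Kitl and Csf1 exceed 10 in the right panel; the arrays of Il33 range from 3.70 to 5.48.

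Cells sense foreign nucleic acids through receptors such as cGAS and MDA5, and answer to interferons through JAK kinases and STAT and IRF factors. Of 14 such genes, 12 lay at or above 5 (85.7%, against 59.0% of all genes). At or above 7 lay 9, against 41.5% of all genes. The kinase Tbk1 (10.20) and the factor Irf1 (10.19) were bright. Cgas had 8.74, its adaptor Sting1 read 6.60, 6.17 and 6.17, the adaptor Mavs had 8.96, the sensor Ifih1 (MDA5) 7.70 and Tlr3 7.13. The interferon receptor kinases Jak1 (9.52), Jak2 (8.12) and Tyk2 (6.74) were above 5, whereas Stat2 (4.65) and Irf7 (4.88), both induced by type I interferon, were below it and Irf9 (5.31) was just above.

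Interferon-responsive genes are known to hold elements in which GAAA is repeated at a short distance. The 2 stretches below are from the brightest class I gene and from the interferon-induced chemokine described above, with both GAAA and the 2 bases between them in capitals.
B2m (chr2:122147538-122147567, plus strand, level 13.41): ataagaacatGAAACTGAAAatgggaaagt
Cxcl10 (chr5:92349083-92349112, minus strand, level 9.34): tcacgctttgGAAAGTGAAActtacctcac
GAAA, any 2 bases and GAAA, on either strand, stood in the window of 1 of 14 MHC class I genes (B2m), of 2 of 25 chemokine genes (Cxcl10 and the background-range gene Cxcl14) and of 3.13% of all genes with a window. These counts are too small to set the lists apart from the rest.

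Across all genes with a promoter window, base composition moved with level. The median ratio of observed to predicted CpG was 0.858 for bright genes, 0.796 for genes from 5 to 10 and 0.379 for genes below 5. A TATA box (TATAAA, 45 to 11 bases before the start, on the gene's strand) stood in 2.08%, 1.48% and 5.03% of these genes and in 2.95% of all. The lineage lists did not follow the level alone: the mesenchymal list, with the highest median of the lineage lists, had a CpG ratio of 0.392, against 0.556 in the epithelial list.

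Few genes varied between the 3 arrays. The range over the arrays exceeded 1 in 8 genes and 0.5 in 295 of 18193. Among genes with a mean of 6 or more, the largest SD belonged to the phosphatase Acpp, which read 7.30, 6.26 and 5.75. Nqo1, a target of the oxidative stress factor NRF2, read 6.33, 6.0 and 7.09, and the growth factor Bmp2 read 7.28, 7.30 and 6.39, each with replicate 3 apart from the others. The next were Acta2, Apol8 (8.56, 8.96 and 8.14), Plscr2, Tatdn2, Hopx (9.24, 8.70 and 8.53), H3f3b and Lynx1. The array that stood apart differed from gene to gene in this group.

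Levels after a longer culture in the solvent were compared as a check of which side of the limit a gene falls on. Of 18193 genes, 17878 (98.3%) lay on the same side of 5 after 24 h as after 72 h in DMSO, and 437 of the 447 listed gene entries (97.8%) did. Of 26 marker levels checked, 13 shifted by more than 1 SD of the 24 h arrays, by at most 0.5, and none crossed 5. Among these 13, Myc had 10.66 at 24 h and 11.12 at 72 h, and Fn1 10.65 at 24 h and 11.15 at 72 h. The shifts were not tested, and Myc and Fn1 were bright at either time.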

How the data were processed

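RNA of MC38 cells was measured on 1-colour Affymetrix mouse arrays. The authors computed the deposited log2 values by robust multichip averaging (RMA) in Chipster, rounded to 2 decimals; RMA corrects the background and gives every array nearly the same distribution, so changes shared by most genes are removed, and no detection call is kept. The version of RMA and the number of arrays normalised together were not given in the sources used here. Of 45101 probe sets, 64 were controls, 34945 had 1 symbol, 932 several and 9160 none in the platform annotation; 34741 matched a RefSeq gene (GRCm38.p6) by gene ID, and symbols were updated. Levels were averaged over the 3 arrays of the group in Python 3.11.15 (pandas 2.3.3, numpy 2.4.6), with no test between groups. Counting was tested on simulated data. The 19 gene lists (484 entries, 447 measured, the others not analysed here) and the members were chosen with earlier results of these data known. Named were the 20 brightest genes, in each list the 6 highest and 4 defining members (more for receptors, chemokines and cytokines), and the 10 genes of largest SD at a mean of 6 or more; other genes were chosen after their values were seen. Promoter windows (250 bases before to 50 after the start) covered 14452 genes. The E-box and the GAAA pair were searched only in the 250 bases before the start. Alternatives were the limit, the choice of probe set, quantile normalisation again, the limit required on all 3 arrays in place of their mean, each array left out, and the 72 h DMSO arrays.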

Additional observations from a re-analysis of the deposited data

How the results depend on the processing

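Counts of genes at or above the limit depended mainly on where it was set. At 4.5 in place of 5, the count was 6 for MHC class II, 22 for cytokines, 7 for intestinal, 2 for endothelial and 6 for sensory receptor genes, and 1 for the Y-linked genes and Xist. At 6, the counts were 1 for MHC class II, 7 for chemokines, 3 for epithelial, 7 for immune ligand, 1 for intestinal, 2 for leukocyte and 19 for receptor tyrosine kinase genes, 1 for sensory receptors and 1 for markers of other tissues. At 7, chosen after the values were seen, they were 1 for MHC class II, 5 for chemokines, 1 for epithelial, 6 for immune ligand, 1 for intestinal and 15 for receptor tyrosine kinase genes, and 0 for the endothelial, leukocyte, sensory receptor and other-tissue lists. With the mean of a gene's probe sets in place of the highest, 916 genes were bright, 32 of the 50 brightest genes were shared, and the counts were 6 for epithelial, 1 for intestinal and 4 for other-tissue genes. Leaving out probe sets that can bind several transcripts gave 4 for other-tissue genes. All other counts stayed within 1.5 times under these settings. So did every count with the arrays quantile normalised again, with the probe set chosen over all 12 arrays, with the limit required on all 3 arrays, with each array left out, with the limit at the 95th percentile of the sensory receptor genes (4.79) and on the 72 h DMSO arrays. Of 26 marker levels, 3 crossed the limit of 5 with the mean of probe sets and 1, Epcam, at 4.19 without probe sets that can bind several transcripts. No paired analysis was possible because the levels come from no test and 1 group was described. Array signal near the background limits every statement on genes between 5 and 7.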

Other observations

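Probe sets without a gene symbol in the platform annotation also gave signal. Of 9160 such probe sets, 1461 lay at or above 5 and 163 at or above 10 on the 24 h DMSO arrays. The highest reached 14.20, above the brightest gene analysed, Lgals1 (14.18). Their transcripts are not named here.

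Genes with several probe sets often gave different readings. Of 9010 such genes, 2256 had every probe set below 5, 3073 had every probe set at or above 5, and 3681 had probe sets on both sides. Zeb1, Cd44, Tgfbr2, Tap1 and Mif were among the last, with lowest probe sets at 3.14, 3.03, 2.92, 2.55 and 3.33 beside levels of 9.05, 12.12, 9.32, 7.83 and 13.43. The cause was not tested.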
